A study of Mus musculus with 10 samples.

Results

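The proteasome genes of CNS-associated macrophages are described here across 3 genotypes of the Mrc1-CreERT2 line: 49 genes of the 53546 in the deposited count table, or of the 22778 that had a count in any library. Members were taken by symbol, as every gene whose name starts with Psma, Psmb, Psmc, Psmd, Psme or Psmg. Of 55 such symbols, 5 pseudogene entries (names with -ps) were dropped, and Psmb11, which encodes the catalytic subunit of the thymus proteasome, was dropped because it had 0 counts in the 10 libraries. All 49 members passed the filter on low counts, so none is missing from the tests below.

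CNS-associated macrophages are the macrophages of the meninges, the perivascular spaces and other borders of the brain. They were sorted by flow cytometry from brains of untreated C57BL/6N mice 6 to 8 weeks old, and each library is an individual mouse: 4 homozygous for the Mrc1-CreERT2 allele, 3 heterozygous (replicates 1, 2 and 4) and 3 wild type. By its name the allele places the tamoxifen-dependent Cre recombinase CreERT2 at the Mrc1 locus, which encodes the mannose receptor CD206, and no floxed target is listed for any group. No source used here states the sort gate. Mrc1 itself was measured at 489 ± 48.6 CPM in homozygous libraries, 2153 ± 153 CPM in heterozygous libraries and 3481 ± 365 CPM in wild-type libraries (SD, n = 4, 3 and 3), which followed the labels in every library. CPM are counts per 1000000 counts of a library after scaling of the libraries. Libraries held 22986972 to 36575446 counts, of which 0.452 to 0.531% fell on the 49 proteasome genes. Summed CPM of 8 markers of CNS-associated macrophages ran from 13824 to 14413 in homozygous libraries, 12497 to 14505 in heterozygous ones and 12997 to 13992 in wild-type ones. That sum includes Mrc1. The other 7 markers were fitted above 0 in homozygous against wild-type libraries, as were 51.1% of all tested genes. Of the 7 markers Lyve1 was called, at 1048 to 1260 CPM in homozygous and 628 to 638 CPM in wild-type libraries (log2 fold change 0.85, edgeR adjusted p = 0.0215). Summed CPM of 5 microglia markers, P2ry12 and Gpr34 being the highest of them, had a range of 1075 to 1586 in homozygous libraries, 1662 to 2730 in heterozygous ones and 1391 to 3400 in wild-type ones, and the homozygous range overlapped the wild-type range only. All 5 were fitted below 0 in homozygous against wild-type libraries. Of them 3, singled out after their values were seen, were lower without overlap, a pattern that 3.57% of all tested genes met. Tmem119 had 86.2 to 130.2 CPM in homozygous and 258 to 824 CPM in wild-type libraries, Sall1 2.2 to 4.3 and 14.8 to 26.4 CPM, and Siglech 46.1 to 93.3 and 109 to 223 CPM, with log2 fold changes of -2.10, -2.78 and -0.996 and edgeR adjusted p-values of 0.115, 0.362 and 0.572. Summed CPM of 5 monocyte markers, mostly Ccr2, was 5.72 to 13.5, 49.1 to 68.0 and 75.7 to 163 in homozygous, heterozygous and wild-type libraries. Ccr2 averaged 7.12 ± 1.60, 49.7 ± 12.6 and 129 ± 53.2 CPM in the same order. It was called lower in homozygous against wild-type (edgeR adjusted p = 0.00216) and against heterozygous libraries (edgeR adjusted p = 0.0421). Of all tested genes 0.0642% and 0.0214% were called in these comparisons. Ly6c2, the next highest, averaged 1.04, 6.60 and 2.58 CPM, and Chil3 was at 0 in every library. Summed CPM of 5 B cell markers, mostly Ighm, ran from 251 to 410 in homozygous libraries, 329 to 446 in heterozygous ones and 429 to 706 in wild-type ones, with Ms4a1, Cd79a and Pax5 at 0 in the heterozygous libraries. Of 6 dendritic cell markers, Cd209a and Zbtb46 were the highest, and Flt3, Xcr1, Clec9a and Ccr7 were at most 2.93 CPM in any library. Summed CPM of the 6 was 74.8 to 226, 128 to 189 and 114 to 143 in homozygous, heterozygous and wild-type libraries. In the same order it was 44.1 to 99.5, 69.0 to 108 and 91.0 to 178 for 3 oligodendrocyte markers. For 7 T and NK cell markers it was 4.69 to 20.3, 26.7 to 35.2 and 0.979 to 69.8. For 4 astrocyte markers it was 27.6 to 56.9, 17.1 to 27.2 and 5.84 to 83.4. Neutrophil markers summed to at most 1.38 CPM, endothelial to 4.52, fibroblast to 11.8 and neuron markers to 19.7 CPM. The part of these markers in the values below was not tested. In bulk RNA, fewer cells of a type and less RNA per cell cannot be told apart.

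The proteasome is the large protease that degrades proteins tagged with ubiquitin. Its 20S core is a barrel of alpha and beta rings, and 3 of the beta subunits cut peptide bonds: Psmb5, Psmb6 and Psmb7 in the constitutive core. In cells of the immune system, and in other cells under interferon-gamma, Psmb8, Psmb9 and Psmb10 are built into new cores in their places, which makes the immunoproteasome and changes the peptides offered on MHC class I. The 19S cap, made of a base with ATPases and a lid, recognises and unfolds tagged proteins. The activators encoded by the Psme genes bind the same ends of the core, and dedicated chaperones assemble it.

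The regulatory sequence at the start of 3 catalytic genes is shown because these genes stand for the immunoproteasome (Psmb8 and Psmb9) and for the constitutive core (Psmb5). Each line gives the 250 bases before and the 50 bases after a gene's start, 5′ to 3′ on the gene's strand, from RefSeq on GRCm38.p6. Capitals mark matches to the motifs named after them. The Psmb8 window is chr17:34197945-34198244 (plus strand), the Psmb9 window chr17:34187281-34187580 (minus strand) and the Psmb5 window chr14:54617946-54618245 (minus strand).
Psmb8: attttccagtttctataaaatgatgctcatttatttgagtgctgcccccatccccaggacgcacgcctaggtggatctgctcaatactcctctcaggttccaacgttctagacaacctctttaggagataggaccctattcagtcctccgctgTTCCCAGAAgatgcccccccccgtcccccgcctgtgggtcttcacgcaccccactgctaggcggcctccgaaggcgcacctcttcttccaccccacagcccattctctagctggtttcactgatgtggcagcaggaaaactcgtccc
Psmb9: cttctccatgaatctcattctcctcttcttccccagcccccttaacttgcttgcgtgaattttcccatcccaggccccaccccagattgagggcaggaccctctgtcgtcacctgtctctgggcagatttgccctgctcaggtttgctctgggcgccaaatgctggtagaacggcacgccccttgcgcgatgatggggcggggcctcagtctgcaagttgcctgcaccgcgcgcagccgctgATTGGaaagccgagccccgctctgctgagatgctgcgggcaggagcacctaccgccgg
Psmb5: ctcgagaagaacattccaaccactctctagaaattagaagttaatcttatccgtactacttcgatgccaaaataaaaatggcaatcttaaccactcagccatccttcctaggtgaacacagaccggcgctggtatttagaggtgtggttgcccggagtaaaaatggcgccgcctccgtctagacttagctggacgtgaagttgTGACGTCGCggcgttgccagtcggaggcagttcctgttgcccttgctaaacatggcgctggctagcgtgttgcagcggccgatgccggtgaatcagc

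Both strands were searched for the core of the interferon-stimulated response element (GAAA, 2 free bases, GAAA), the gamma-activated site (TTCNNNGAA), an NF-kB site (GGG, 2 free bases, TTTCC), the core of the antioxidant response element that Nfe2l1 and Nfe2l2 bind (TGACNNNGC) and the CCAAT box. Of these, Psmb8 held a gamma-activated site, TTCCCAGAA, at positions -97 to -89 from the start, Psmb9 a CCAAT box read on the other strand at -8 to -4, and Psmb5 an antioxidant response element core, TGACGTCGC, at -47 to -39. The Psmb6 window held the same core as TGACGGAGC at -9 to -1. The Psmb9 window shares 275 of its 300 bases with that of Tap1, the peptide transporter gene that starts close by on the opposite strand. A table of start windows matched 41 of the 49 members, with 45 windows between them. The gamma-activated site was found in 3 of these 45 windows (Psmb8, Psmd2 and Psmg1) and in 8.3% of all 32851 windows. The antioxidant core was found in 6 of the 45 windows and in 12.4% of all windows. The interferon-stimulated core was found in 5 of the 45 (Psmb3, Psmd4, Psmd9, Psme1 and Psmg4) and in 3.44% of all windows. It was not found for Psmb8, Psmb9 or Psmb10, and the Psmb10 window held none of the motifs searched. The NF-kB letters were found in 1 member (1.63% of all windows) and the CCAAT box in 15 members (37.4%). A match describes these letters and not a bound site.

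Psmb8, the immunoproteasome counterpart of Psmb5, had the highest level per length of the 49 genes. Levels of different genes were compared as mean CPM per kilobase of transcript over the 10 libraries. On that scale Psmb8 stood at 239 ± 27.9 (SD, n = 10), followed by the structural core subunit Psmb2 at 201 ± 21.1, the constitutive catalytic subunit Psmb6 at 183 ± 17.0, the activator subunit Psme2 at 183 ± 30.7 and the alpha-ring subunit Psma7 at 159 ± 10.5. Psme1, which forms a ring with Psme2, came next at 155 ± 24.3. Psmb8 exceeded Psmb2 by more than the SD of either, while each later step down to Psme1 was smaller than the larger SD of its pair. Per kilobase of coding sequence Psmb8 and Psmb2 were again the first and second, while Psmb6 moved to rank 8.

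Within the catalytic set, Psmb9 had 108 ± 16.4 and Psmb10 101 ± 13.4 CPM per kilobase over the 10 libraries, close to each other. Both were above Psmb5, at 61.7 ± 9.64, and Psmb7, at 37.4 ± 6.60. They were below Psmb6 per kilobase of transcript, but per kilobase of coding sequence Psmb9, at 223, was above Psmb6, at 204. Of the summed level per kilobase of the 6 catalytic genes, the 3 immunoproteasome genes made up 62.0 ± 2.92% in homozygous libraries (57.8 to 64.6%, n = 4), 59.1 ± 3.47% in heterozygous libraries (55.1 to 61.4%, n = 3) and 62.6 ± 2.13% in wild-type libraries (61.0 to 65.0%, n = 3). The 3 ranges overlapped.

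At the other end, Psme4 (the large activator PA200) had 3.71 ± 1.29, and Psmc3ip had 4.14 ± 3.43 CPM per kilobase. Psmc3ip encodes a partner of meiotic recombinases named for its binding to the ATPase Psmc3 and is no proteasome subunit. It had 0 counts in 1 library of each genotype, against 88 to 355 counts in the other 7. Psma8, the alpha subunit of the testis proteasome, was singled out after its values were seen. It had the lowest level per kilobase of transcript, 3.16 ± 1.85, while per kilobase of coding sequence Psme4, at 4.36, was below Psma8, at 7.12. Psma8 ran from 2 counts in a wild-type library to 372 counts in a homozygous one. Median levels by role, in CPM per kilobase, were 113 for the 4 structural beta subunits, 108 for the 3 immunoproteasome subunits, 69.5 for the 6 base ATPases, 66.2 for the 8 alpha subunits and 61.7 for the 3 constitutive catalytic subunits. Base subunits that are not ATPases had a median of 54.7, the lid 40.7, activators and partners 24.9, and assembly chaperones 20.5. The order turned with the length used. Per kilobase of coding sequence the medians were 223 for the immunoproteasome subunits, 182 for the structural beta subunits, 151 for the alpha subunits, 84.0 for the base ATPases and 70.1 for the constitutive catalytic subunits.

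**Figure D1:**
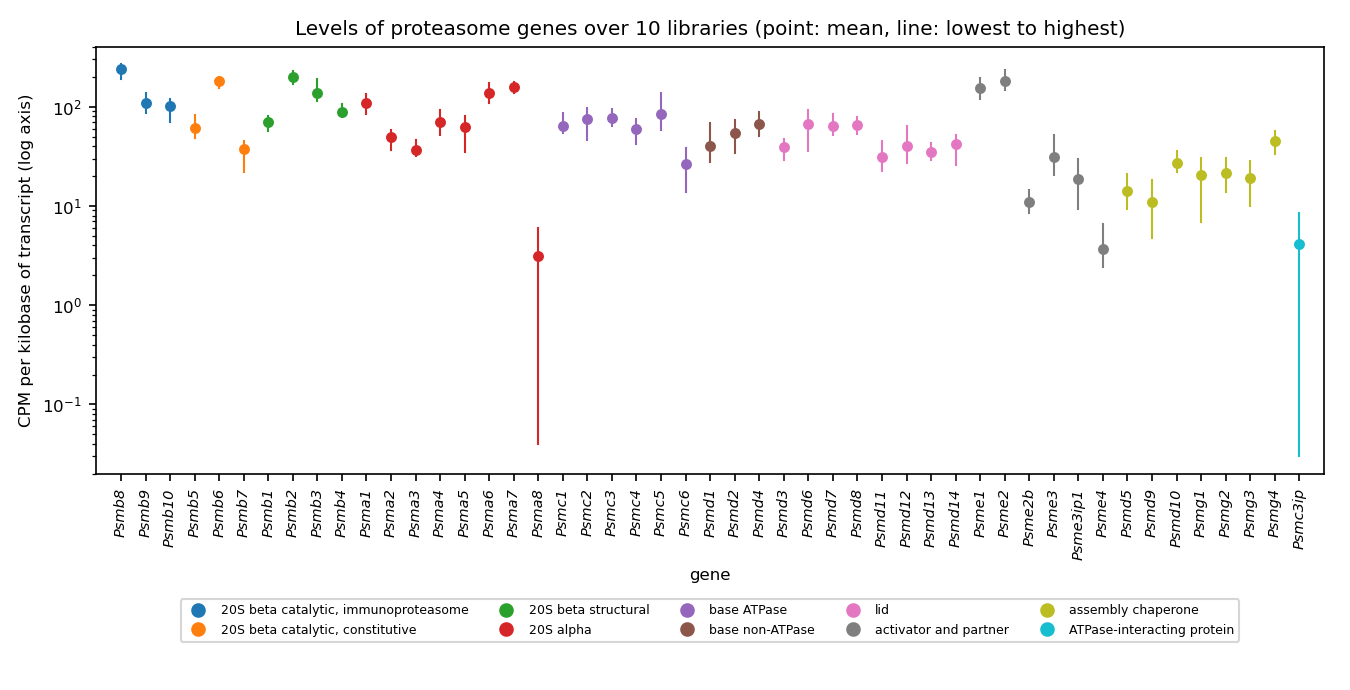
Mean level of each of the 49 proteasome genes over the 10 libraries, in CPM per kilobase of transcript on a log axis, coloured by role (points), with the lowest and highest library (lines). Psmb8 is the highest at 239 and Psma8 the lowest at 3.16. The lower end of the Psmc3ip line stands for libraries with 0 counts.

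The genotype comparisons ask whether carrying the allele went with a change in the proteasome genes of these cells. No proteasome gene passed an adjusted p of 0.05 between any genotypes. In homozygous against wild-type libraries 0 of 49 passed, with 0.0642% of all 14023 tested genes called (9 genes). In heterozygous against wild-type libraries 0 of 49 passed, with 0% of all genes called. In homozygous against heterozygous libraries 0 of 49 passed, with 0.0214% called (3 genes). DESeq2 and limma-voom also called 0 of 49 in each comparison. Over all 14023 tested genes DESeq2 called 283, 233 and 129 in the same order of comparisons, and limma-voom called 10, 0 and 2. Apart from those, the calls come from the quasi-likelihood test of edgeR, adjusted by the Benjamini-Hochberg method over all tested genes, as do the adjusted p-values below, and each fold change is a log2 difference with its SE and 95% interval. The wild-type, heterozygous and homozygous groups are each used in more than 1 comparison, so these comparisons share libraries.

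The intervals show how large a change each gene's data still allow. In homozygous against wild-type libraries, the 95% interval of 38 of the 49 genes lay within a 2-fold change in either direction, and that of 24 genes within a 1.5-fold change, against 26.5% and 8.43% of all tested genes. Read over genes at 20 to 200 CPM, which hold most members, the 2-fold count was 37 of 44 members, against 51.6% of 5648 genes. In heterozygous against wild-type libraries the corresponding member counts over all 49 were 34 and 13, against 24.6% and 7.34% of all tested genes. In homozygous against heterozygous libraries they were 43 and 22, against 27.5% and 8.70%. At 20 to 200 CPM the 2-fold counts were 33 of 44 members, against 47.1% of genes, and 42 of 44 members, against 54.1% of genes, in these comparisons. At 20 to 200 CPM the median coefficient of variation within genotypes was 15.2% for 44 members and 28.5% for the 5648 genes. It was 7.27% for Psma7, 12.3% for Psmb7 and 37.7% for Psme4.

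**Figure D2:**
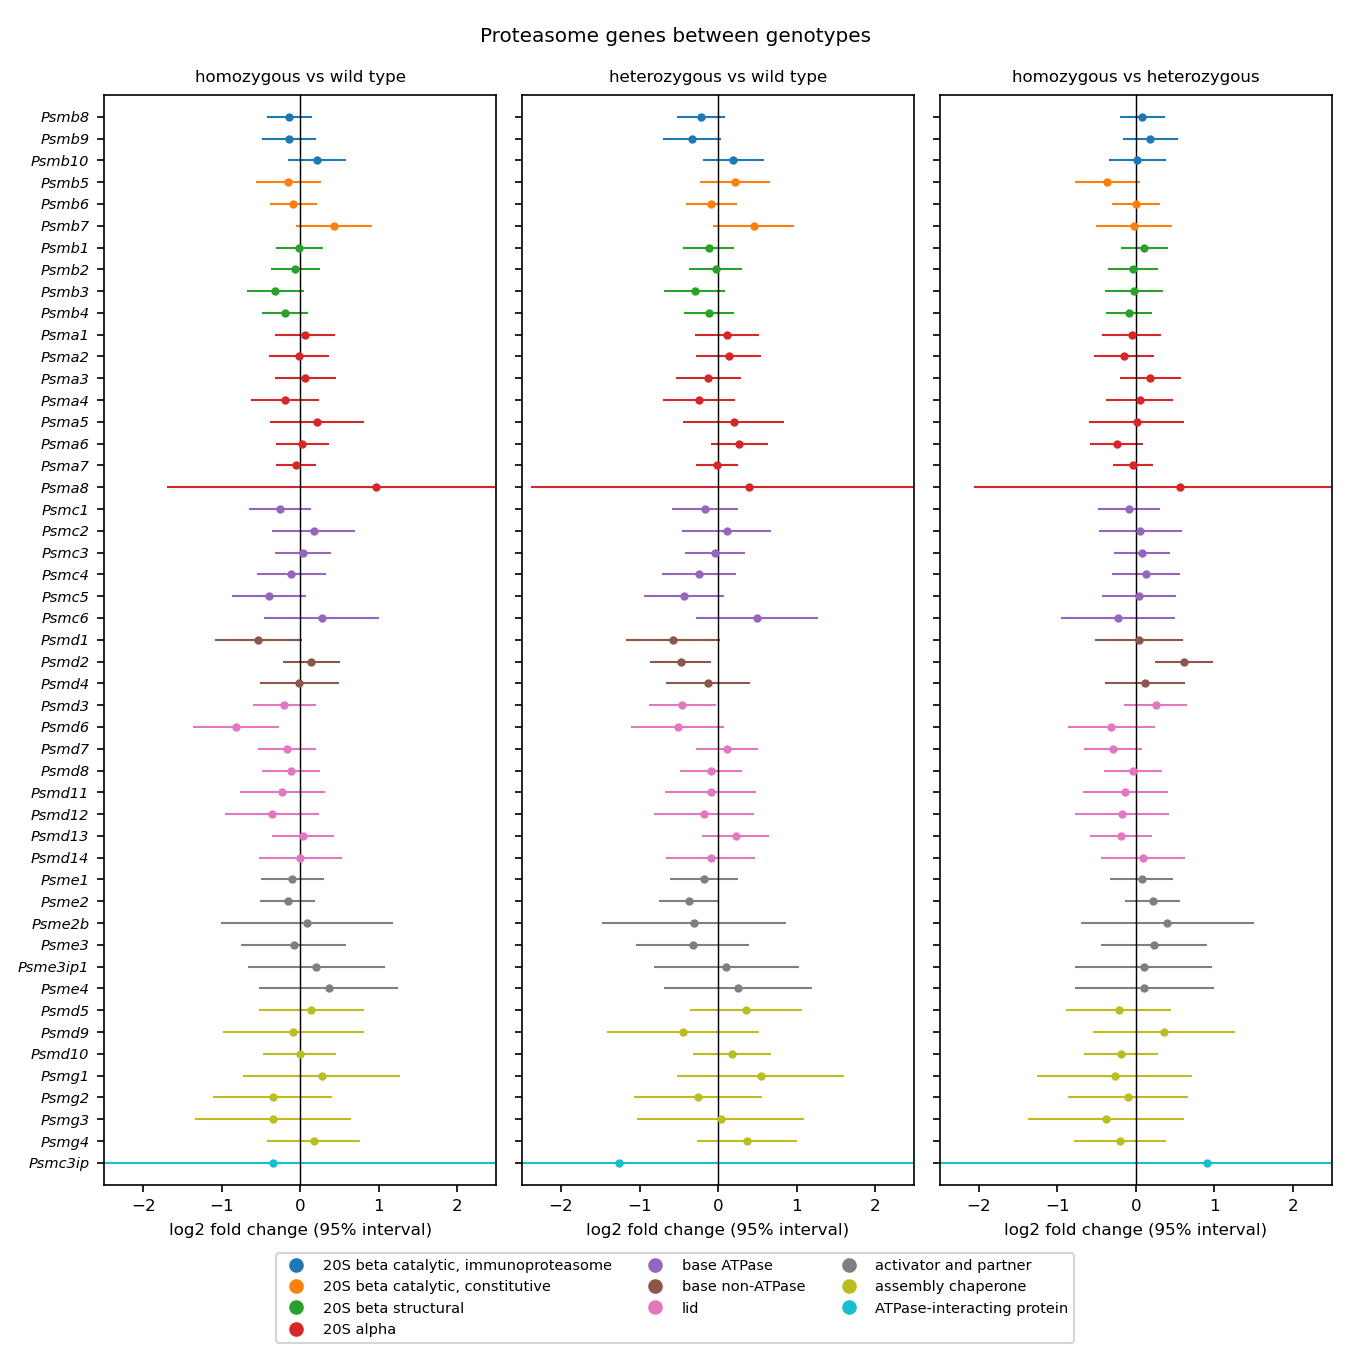
Log2 fold changes (points) with 95% intervals (lines) of the 49 proteasome genes in homozygous against wild-type, heterozygous against wild-type and homozygous against heterozygous libraries, coloured by role. Most intervals cross 0. The 4 that do not are those of Psmd6 in the first panel, of Psmd2 and Psmd3 in the second and of Psmd2 in the third, none past the adjusted threshold. Intervals of Psma8 and Psmc3ip run out of the panels.

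No difference of the immunoproteasome subunits passed the test, and their intervals lay within a 2-fold change in every comparison. Psmb8 had 352, 331, 443 and 406 CPM in homozygous libraries and 408, 309.9 and 368 CPM in heterozygous libraries, against 433, 412 and 422 CPM in wild-type libraries. All 3 heterozygous libraries and 3 of the 4 homozygous libraries were below the lowest wild-type one. The log2 fold change was -0.14 (SE 0.13, interval -0.43 to 0.14) in homozygous and -0.22 (SE 0.14, interval -0.53 to 0.08) in heterozygous against wild-type libraries, with edgeR adjusted p-values of 0.999 and 0.881.

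Psmb9, the counterpart of Psmb6, had 165, 116, 163 and 145 CPM in homozygous libraries and 121, 127 and 141 CPM in heterozygous libraries, against 188, 157 and 144 CPM in wild-type libraries. The heterozygous values were all below the wild-type ones, and the homozygous values overlapped both. Its log2 fold changes against wild type were -0.14 (SE 0.16) in homozygous and -0.33 (SE 0.17, interval -0.70 to 0.04, adjusted p = 0.791 by edgeR) in heterozygous libraries. Psmb10, the counterpart of Psmb7, had 137, 140.3, 155 and 124 CPM in homozygous libraries and 134, 129 and 149 CPM in heterozygous libraries, against 127, 91.0 and 141 CPM in wild-type libraries. The groups overlapped, and 1 wild-type library was the lowest of the 10 at 91.0 CPM. The Psmb10 log2 fold changes against wild type were 0.21 (SE 0.16) and 0.19 (SE 0.18) in homozygous and heterozygous libraries, and without wild-type replicate 2 they were 0.054 and 0.025.

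Among the constitutive catalytic subunits, Psmb5, with chymotrypsin-like activity, had 43.4, 47.1, 55.7 and 52.0 CPM in homozygous libraries and 53.5, 64.4 and 73.6 CPM in heterozygous libraries, against 53.1, 52.3 and 59.9 CPM in wild-type libraries. Psmb5 was thus highest in 2 heterozygous libraries. The homozygous against heterozygous log2 difference was -0.36 (SE 0.19, interval -0.78 to 0.05). Psmb6, with caspase-like activity, had 122, 154, 161 and 136 CPM in homozygous libraries and 148, 155 and 127 CPM in heterozygous libraries, against 143, 154 and 160.0 CPM in wild-type libraries. Its values overlapped throughout, and its log2 fold change was -0.09 (SE 0.14, interval -0.39 to 0.22) in homozygous against wild-type libraries.

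Psmb7, with trypsin-like activity, had 47.3, 51.0, 44.9 and 44.2 CPM in homozygous libraries and 45.9, 52.8 and 44.0 CPM in heterozygous libraries, against 37.6, 25.5 and 40.8 CPM in wild-type libraries. Every library with the allele was above every wild-type library. The log2 fold change was 0.43 (SE 0.22, interval -0.05 to 0.92) in homozygous and 0.46 (SE 0.23, interval -0.06 to 0.97) in heterozygous against wild-type libraries, with edgeR adjusted p-values of 0.707 and 0.791. Without wild-type replicate 2 these were 0.26 and 0.27. Psmb7 was the 1 proteasome gene higher in homozygous libraries without overlap, a pattern that 4.40% of all tested genes met. In heterozygous libraries it was 1 of 2, with Psmg4, against 5.43% of all tested genes. In the GENCODE annotation Psmb7 shares 405 exonic bases with Nek6 on the opposite strand, Psmb8 498 with Gm20496 and Psmb9 212 with Tap1. The library kit does not mark the strand, so the reads of such pairs cannot be told apart.

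**Figure D3:**
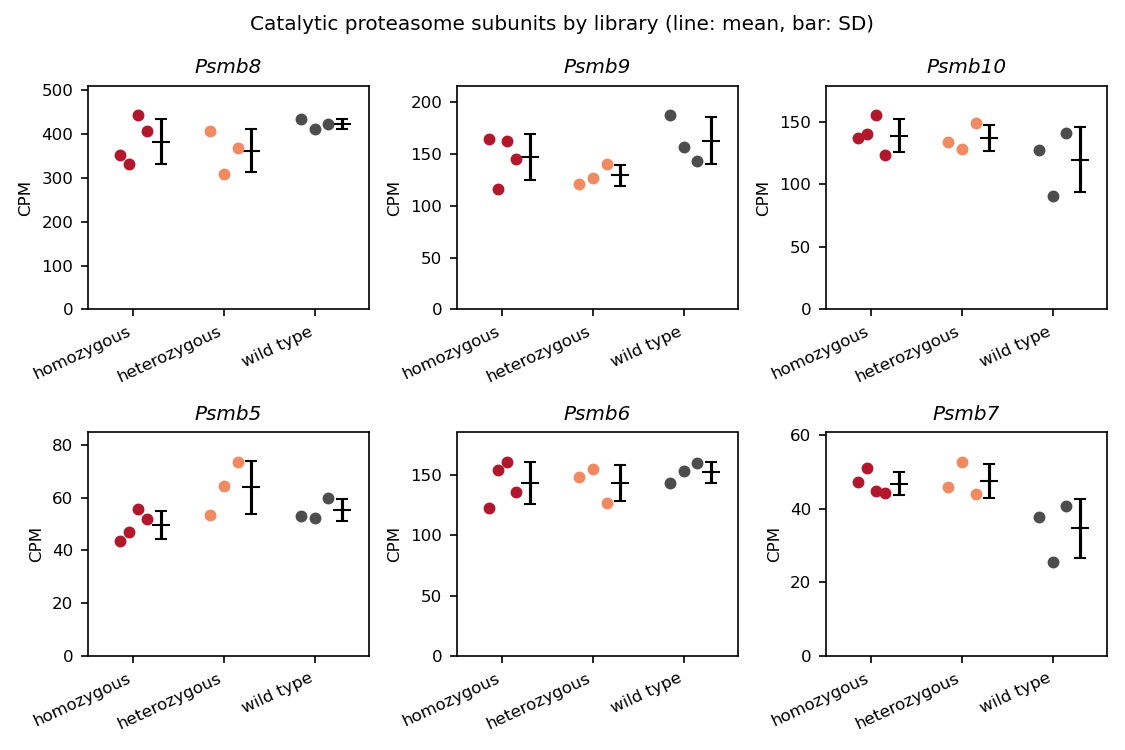
CPM of the 3 immunoproteasome subunits (top row) and the 3 constitutive subunits they replace (bottom row) in each homozygous, heterozygous and wild-type library (points), with group mean (line) and SD (bar). Psmb7 lies above the wild-type libraries in all 7 libraries with the allele, and the other 5 genes overlap between homozygous and wild-type libraries.

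Each immunoproteasome subunit was then set against the subunit it replaces within the same library, which needs no scaling between libraries. No test was run on these ratios, which are descriptions. The count ratio of Psmb8 over Psmb5 was 7.71 in homozygous libraries (geometric mean, range 7.03 to 8.11), 5.68 in heterozygous libraries (4.81 to 7.63) and 7.68 in wild-type libraries (7.04 to 8.16). Homozygous and wild-type libraries covered nearly the same range, and 2 of the 3 heterozygous libraries were below both. The heterozygous minus wild-type difference of log2 ratios was -0.43, against a pooled SD of 0.21, and -0.65 to -0.31 when 1 library was left out.

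The ratio of Psmb9 over Psmb6 was 1.02 in homozygous libraries (0.757 to 1.35), 0.906 in heterozygous libraries (0.816 to 1.11) and 1.06 in wild-type libraries (0.897 to 1.31). All differences of log2 ratios for this pair were smaller than its pooled SD of 0.30. Leaving out 1 library moved the homozygous minus wild-type difference between -0.19 and 0.095. The ratio of Psmb10 over Psmb7 was 2.96 in homozygous libraries (2.75 to 3.46), 2.88 in heterozygous libraries (2.43 to 3.38) and 3.46 in wild-type libraries (3.38 to 3.56). Both allele groups averaged lower, by -0.23 and -0.26 in log2 ratio against a pooled SD of 0.16. Without heterozygous replicate 2 the heterozygous difference was -0.14, under that SD. Homozygous libraries overlapped wild type through 1 library, and heterozygous libraries reached the lowest wild-type value without crossing it.

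**Figure D4:**
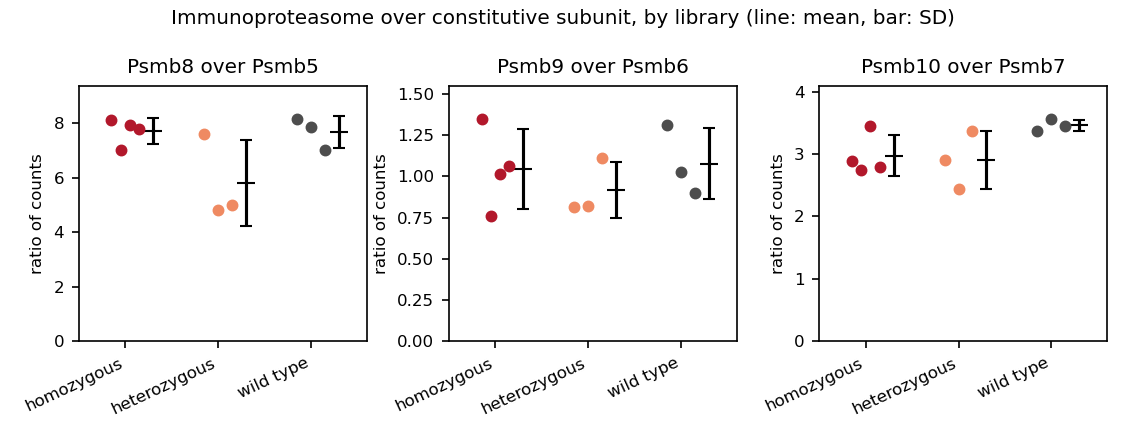
Ratio of counts of each immunoproteasome subunit over the constitutive subunit it replaces, per library (points), with the arithmetic group mean (line) and SD (bar). Psmb8 over Psmb5 is 7.03 to 8.11 in homozygous and 7.04 to 8.16 in wild-type libraries, and 4.81 to 7.63 in heterozygous libraries.

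Relations between members were computed across the 10 libraries. The correlation of log2 CPM was r = 0.57 (permutation p = 0.0874, adjusted 0.349 over 8 relations) and rho = 0.56 (permutation p = 0.0978, adjusted 0.391) for Psmb8 and Psmb9. It was r = 0.18 without the 2 libraries farthest from the median of Psmb8, a step that also narrows the range of Psmb8. Over deviations from genotype means it was r = 0.37. Psmb10 had r = -0.09 with Psmb8 and r = -0.17 with Psmb9. The activator partners Psme1 and Psme2 had r = 0.65 (permutation p = 0.0462, adjusted 0.349) and rho = 0.60 (permutation p = 0.0742, adjusted 0.391), with r = 0.44 without the 2 libraries farthest from the median of Psme1 and r = 0.63 over deviations from genotype means. Psmb9 and Tap1, which share their start region, had r = 0.28 (permutation p = 0.424, adjusted 0.879), r = 0.63 without the 2 libraries farthest from the median of Psmb9 and r = 0.52 over deviations from genotype means. None of the 8 relations passed an adjusted p of 0.05.

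No structural subunit of the core was called. The alpha-ring subunit Psma7 had 182, 179, 204 and 159 CPM in homozygous libraries and 184, 196 and 178 CPM in heterozygous libraries, against 181, 189.8 and 192 CPM in wild-type libraries. The Psma7 log2 fold change was -0.05 (SE 0.11, interval -0.30 to 0.20) in homozygous and -0.01 (SE 0.12, interval -0.28 to 0.26) in heterozygous against wild-type libraries. The structural beta subunit Psmb2 averaged 169.5 ± 20.6 CPM in homozygous, 173 ± 22.5 CPM in heterozygous and 177 ± 16.9 CPM in wild-type libraries. Psmb3, another structural beta subunit, had the smallest p of this role, with a log2 fold change of -0.32 (SE 0.16, interval -0.68 to 0.04, adjusted p = 0.708 by edgeR) in homozygous against wild-type libraries. Without wild-type replicate 3 it was -0.16. All 4 structural beta subunits had fitted values below 0 against wild type, with medians of -0.13 in homozygous and -0.12 in heterozygous libraries. Of the 8 alpha subunits, 5 were fitted above 0 in both comparisons with wild type, and their medians were 0.04 and 0.12.

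Psmd6, a lid subunit, had the smallest p of the 49 genes in homozygous against wild-type libraries. It had 68.3, 70.9, 77.2 and 68.3 CPM in homozygous libraries and 97.5, 118 and 49.1 CPM in heterozygous libraries, against 128, 124 and 126 CPM in wild-type libraries. Homozygous and wild-type libraries were each tight and far apart, while the heterozygous libraries spread from below the homozygous to just under the wild-type range. The log2 fold change was -0.82 (SE 0.25, interval -1.37 to -0.27) in homozygous against wild-type libraries, with an adjusted p of 0.504 by edgeR. It was the 1 member at an unadjusted p under 0.05, a level that 7.52% of all tested genes met in either direction. It was also the 1 member that was lower without overlap, which 3.57% of all tested genes were. The monocyte and B cell marker sums, given above, were also lower in homozygous than in wild-type libraries with no overlap. Ccr2 made up most of the monocyte sum and Ighm most of the B cell sum. The next highest marker of each, Ly6c2 and Cd79b, overlapped between these groups. Cd79b had 45.5 to 74.3 CPM in homozygous and 59.0 to 97.1 CPM in wild-type libraries. The microglia markers Tmem119, Sall1 and Siglech were also lower without overlap. The part of all these markers in the Psmd6 difference was not tested. In heterozygous against wild-type libraries the Psmd6 log2 fold change was -0.51 (SE 0.27, adjusted p = 0.791 by edgeR).

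Psmd2, a scaffold subunit of the base, had the smallest p of the 49 genes in both comparisons with heterozygous libraries. It had 175, 219.6, 181 and 172 CPM in homozygous libraries and 119.8, 102 and 143 CPM in heterozygous libraries, against 200.2, 152 and 155 CPM in wild-type libraries. The 3 heterozygous libraries were the lowest of the 10. The log2 fold change was 0.62 (SE 0.16, interval 0.25 to 0.98, adjusted p = 0.985 by edgeR) in homozygous against heterozygous libraries and -0.47 (SE 0.17, interval -0.86 to -0.09, adjusted p = 0.791) in heterozygous against wild-type libraries. In homozygous against wild-type libraries it was 0.14 (SE 0.16, interval -0.22 to 0.50). In homozygous against heterozygous libraries Psmd2 was the 1 member at an unadjusted p under 0.05, against 4.86% of all tested genes. It was 1 of 2 members higher without overlap (3.75% of all tested genes), the other being Psme2b. The lid subunit Psmd7 was the 1 member lower without overlap (3.72%).

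Psmd3, a lid subunit, had 97.8, 80.5, 97.9 and 63.8 CPM in homozygous libraries and 63.0, 73.1 and 78.0 CPM in heterozygous libraries, against 101, 92.4 and 99.3 CPM in wild-type libraries. The heterozygous libraries were all below the wild-type ones, with a log2 fold change of -0.45 (SE 0.19, interval -0.88 to -0.02, adjusted p = 0.791 by edgeR). Psmd2 and Psmd3 were the 2 members at an unadjusted p under 0.05 in heterozygous against wild-type libraries, a level that 5.82% of all tested genes met. In that comparison 5 members were lower without overlap (Psmb8, Psmb9, Psmd2, Psmd3 and Psmd6), or 10.2% of members, against 4.16% of all tested genes. Psmd1, the other large scaffold of the base, had 94.4, 114, 127 and 108 CPM in homozygous libraries and 141, 96.7 and 85.9 CPM in heterozygous libraries, against 104, 163 and 215 CPM in wild-type libraries. Its wild-type libraries spread widely, and its log2 fold changes were -0.53 (SE 0.25) and -0.58 (SE 0.27) in homozygous and heterozygous against wild-type libraries, each with an interval that crossed 0. Without wild-type replicate 3 the homozygous value was -0.27. By role, 7 of 8 lid subunits were fitted below 0 in homozygous and 6 of 8 in heterozygous against wild-type libraries, with medians of -0.19 and -0.09. Over all 49 members the medians were -0.06 and -0.09, against 0.02 and 0.01 over all tested genes, and 18 and 19 members were fitted above 0, against 51.1% and 50.7% of all tested genes. In homozygous against heterozygous libraries 26 members were fitted above 0, against 50.9% of all tested genes.

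**Figure D5:**
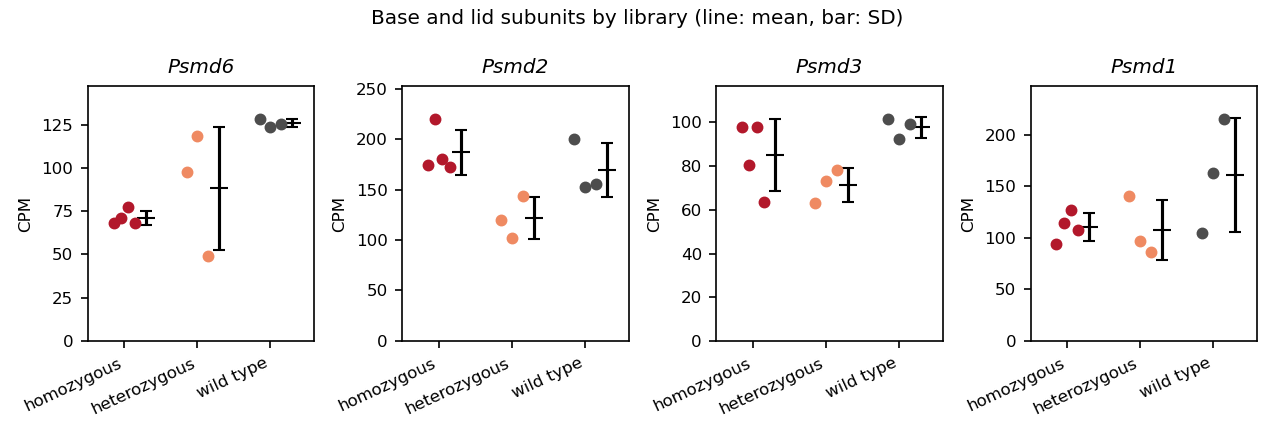
CPM of 4 subunits of the 19S cap in each homozygous, heterozygous and wild-type library (points), with group mean (line) and SD (bar). Psmd6 is 68.3 to 77.2 in homozygous and 124 to 128 in wild-type libraries, and Psmd2 is lowest in the 3 heterozygous libraries.

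The base ATPases Psmc2 and Psmc3 averaged 142 ± 22 and 144 ± 7.76 CPM in homozygous, 136 ± 28.9 and 136 ± 19.9 CPM in heterozygous, and 126 ± 38.8 and 140.4 ± 28.6 CPM in wild-type libraries. Psmc6 had the widest fold change interval of the ATPases, at 0.50 (SE 0.35, interval -0.28 to 1.28) in heterozygous against wild-type libraries, and gave 0.25 to 1.07 when 1 library was left out. Among the activators, Psme2 had 169, 159, 213 and 167 CPM in homozygous libraries and 143, 159 and 155 CPM in heterozygous libraries, against 212, 154 and 226 CPM in wild-type libraries. The Psme2 log2 fold change in heterozygous against wild-type libraries was -0.37 (SE 0.17, adjusted p = 0.791 by edgeR), and the groups overlapped. Psme1 averaged 171 ± 18.4 CPM in homozygous, 162 ± 21.2 CPM in heterozygous and 183 ± 44.6 CPM in wild-type libraries. Psme3, the subunit of the nuclear activator, ranged from 73.8 to 106 CPM in homozygous and 57.0 to 93.5 CPM in heterozygous libraries, inside the wild-type range of 54.5 to 137 CPM. Psme4 averaged 26.4 ± 11.2 CPM in homozygous, 24.5 ± 6.45 CPM in heterozygous and 20.6 ± 7.69 CPM in wild-type libraries. Psme2b, singled out after its values were seen, is a near-identical copy of Psme2, so the division of reads between both is uncertain. Among the assembly chaperones, Psmd5 averaged 60.5 ± 13.9, 70.3 ± 26.7 and 54.8 ± 11.7 CPM and Psmd10 37.3 ± 1.91, 42.4 ± 7.23 and 37.5 ± 5.54 CPM in homozygous, heterozygous and wild-type libraries.

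No gene of the lists of proteasome partners and pathways was called. Of all tested genes, 0.0642%, 0% and 0.0214% were called in the 3 comparisons, as given above. Fitted above 0 were 51.1% of all tested genes in homozygous and 50.7% in heterozygous against wild-type libraries. In homozygous against heterozygous libraries this share was 50.9%. Of 10 tested partners outside the symbol rule, 0 were called in any comparison. In homozygous and heterozygous against wild-type libraries 3 and 5 partners were fitted above 0, and 4 in homozygous against heterozygous libraries. Pomp, the maturation chaperone of the core, averaged 204 ± 17.5 CPM in homozygous, 179 ± 12.9 CPM in heterozygous and 199 ± 32.0 CPM in wild-type libraries. Of 15 tested genes of proteasome transcription and ubiquitin supply, 0 were called, and 11 were fitted below 0 in homozygous against wild-type libraries, with a median of -0.11. In heterozygous against wild-type libraries 9 were fitted below 0, and in homozygous against heterozygous libraries 12 were fitted above 0. Nploc4, which encodes a cofactor of the unfoldase p97 and was singled out after its values were seen, had the lowest adjusted p of that list. It had 62.9 to 149 CPM in homozygous and 71.4 to 90.8 CPM in heterozygous libraries, against 27.1 to 47.1 CPM in wild-type libraries, and its log2 fold change in homozygous against wild type was 1.47 (SE 0.33, adjusted p = 0.290 by edgeR). Nfe2l1, the transcription factor that raises proteasome genes when the proteasome is inhibited, averaged 117 ± 22.5 CPM in homozygous, 103 ± 41.9 CPM in heterozygous and 69.6 ± 14.1 CPM in wild-type libraries. The Nfe2l1 log2 fold change in homozygous against wild-type libraries was 0.75 (SE 0.29, adjusted p = 0.634 by edgeR). Of 12 tested genes of MHC class I peptide supply, 0 were called. In homozygous and heterozygous against wild-type libraries 8 and 4 of the 12 were fitted above 0, and 9 in homozygous against heterozygous libraries. Tap1 averaged 182 ± 48.2 CPM in homozygous, 176 ± 56.0 CPM in heterozygous and 154 ± 36.5 CPM in wild-type libraries. B2m, the light chain of MHC class I, averaged 3592 ± 356, 3696 ± 56.1 and 3839 ± 215 CPM in the same order. Of 18 tested genes of interferon signalling and response, 0 were called. The list holds Ifit2, Ifit3, Isg15, Bst2, Stat2 and Irf9 beside the interferon-gamma receptor genes, so it is not particular to interferon-gamma. In homozygous and heterozygous against wild-type libraries 13 and 14 of the 18 were fitted below 0, with medians of -0.10 and -0.17. In homozygous against heterozygous libraries 14 of the 18 were fitted above 0. From this list Ifngr1, which encodes a chain of the interferon-gamma receptor, averaged 1310 ± 69.5 CPM in homozygous, 1234 ± 83.5 CPM in heterozygous and 1351 ± 288 CPM in wild-type libraries.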

How the data were processed

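RNA was measured in 10 libraries of sorted cells. Per the labels' protocols, 500 pg of total RNA went into the SMARTer Ultra Low Input v4 kit, which does not mark the strand, and Nextera XT, in 1 batch. The authors deposited raw whole-number counts per gene. The submitters' processing notes name featureCounts 2.0.2, STAR 2.7.8a and bcl2fastq 2.20. Build, annotation, strand setting and treatment of multimapping reads: not given in the sources used here.

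Genes were filtered with filterByExpr (minimum count 10, minimum total 15) and libraries scaled by TMM. Genotypes were compared with edgeR 4.0.16 (quasi-likelihood, robust, all 10 libraries in the fit) in R 4.3.3, with Benjamini-Hochberg adjustment over 14023 genes. SE is the fold change over the square root of F. Alternatives used DESeq2 1.42.0 and limma 3.58.1. The procedure was tested on simulated counts: in homozygous against wild type, of genes over 20 CPM in a fit of 13133 genes, 56.8% of 4-fold and 15.2% of 2-fold changes were called. In heterozygous against wild type (13132 genes) these were 60.4% and 2.63%, and in homozygous against heterozygous (13092 genes) 58.8% and 15.8%. False calls numbered 3, 0 and 1 in the same order. The changed genes were drawn from all tested genes, which vary more than the members at 20 to 200 CPM, so these rates are not those of the members. Pair ratios are log2 of counts plus 0.5. Lengths are of the longest coding transcript in GENCODE vM21, matched for 49 of 49 members (Psme3ip1 as Fam192a). Exons overlap another gene's in 16 members.

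Members and lists were chosen with earlier results of these data known. Named were the 6 catalytic genes, Psme1 to Psme4, the 2 highest of each role, the 3 smallest p in each direction and comparison, and genes with libraries at 0. Of other lists, the 2 highest, Tap1, Pomp and Nfe2l1 were eligible. Labels do not say that mice came from separate litters, and PCR reads carry no molecular identifiers. A few listed genes are not reported here and were left out of the list summaries.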

Additional observations from a re-analysis of the deposited data

Results flagged for a closer look

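Psmd7, a lid subunit, was 82.9 CPM in homozygous library 4, against 92.5 to 94.1 CPM in the other 3 homozygous libraries. The gap to the nearest library was 0.852 of the group's range, above Dixon's 95% critical value for 4 libraries. It was the 1 such value among 30 sets of homozygous values examined (27 named genes and 3 count ratios), where chance gives about 1 in 20. Psmd7 ran from 97.6 to 133 CPM in heterozygous and 87.9 to 121 CPM in wild-type libraries.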

How the results depend on the processing

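The count of 0 proteasome genes called held in each comparison under all 19 alternatives tried, and the 9 ratio differences moved by less than 1 pooled SD. Counts over all genes moved more. In homozygous against wild type (9 called), DESeq2 called 283, the m or f in sample titles as a covariate 17, a fit of only those genotypes 2 and the replicate block 1, and leaving out 1 library gave 2 to 12. In heterozygous against wild type (0 called) DESeq2 called 233. In homozygous against heterozygous (3 called) DESeq2 called 129, and 1 was called with the title letter, the replicate block, no robust estimation and only those genotypes, with 1 to 2 when 1 library was left out. The cause was not tested. Same-numbered libraries had correlations of deviations of 0.00047 to 0.0489 in 8 pairs. In the 25 pairs with different numbers these ran from -0.0667 to 0.0759, so the numbers were not treated as pairs.

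Small fold changes changed sign. With other settings, Psme3 in homozygous against wild type became 0.020 (limma-voom), Psmb6 and Psme4 in heterozygous against wild type 0.0068 and -0.054 (replicate block), and in homozygous against heterozygous Psmb10 -0.0023 (title letter) and -0.053 (replicate block) and Psmb6 -0.00498 (limma-voom) and -0.0501 (replicate block). Leaving out 1 library gave, against wild type, -0.28 to 0.037 for Psme1 and -0.35 to 0.34 for Psme3 in homozygous and -0.59 to 0.099 for Psme3 in heterozygous libraries. In homozygous against heterozygous libraries it gave -0.023 to 0.092 for Psmb10, -0.071 to 0.077 for Psmb6, -0.066 to 0.060 for Psmb7, -0.018 to 0.18 for Psmb8, -0.023 to 0.17 for Psme1 and -0.21 to 0.35 for Psme4. On deviations from genotype means r became 0.22 for Psmb8 and Psmb10, 0.12 for Psmb9 and Psmb10, and 0.18 for Psmb6 and Psmb7. Psmd6 in homozygous against wild type stayed between -0.86 and -0.68 (adjusted p 0.0714 to 0.821), and Psmd2 in homozygous against heterozygous between 0.51 and 0.76 (adjusted p 0.0973 to 1), over all settings. Coding length is shorter than transcript length in every member, so it raises every level. It moved 22 of 27 named levels by more than 1 SD, a count that cannot say whether their order held.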
